A study of Mus musculus with 4 samples.

Results

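A set of 9 secreted cytokines and growth factors was followed through dissociated mouse islets, to find which islet cell types carried the mRNA of each factor and how this changed with cytokine exposure. They were chosen by gene symbol, as the genes named Il6, Csf1, Csf3, Il1a, Il1b, Tnf, Il15, Il18 and Lif, which are 9 of the 31053 genes in the count matrices. Islets of C57BL/6 mice (C57BL6/J in the study's methods), which by those methods were pooled from several adult males and then split into 4 portions, were left untreated or exposed for 6 h to IL-1β, to IFN-γ or to both cytokines, dissociated, and profiled by droplet-based 3′ single-cell RNA sequencing, 1 library per condition. All 4 groups share the strain and the culture, none carries a transgene, and the IL-1β added was recombinant human protein while the IFN-γ was mouse protein. Every ratio to untreated rests on 1 library, and the labels do not say whether it was prepared together with the other 3. With 1 library per condition there is no replicate of any treatment and no test could be made. Differences between libraries are given as ratios with 95% intervals that cover counting error only, and a library effect cannot be told apart from a treatment effect.

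Barcodes were kept if they had between 200 and 4000 genes detected and no more than 12% of their UMIs (unique molecular identifiers, each counted as 1 captured mRNA molecule) on mitochondrial genes: 1521 cells untreated, 2018 after IL-1β, 2122 after IFN-γ and 1810 after both, with median depths of 15454, 7462.5, 9615 and 11123.5 UMIs per cell. The untreated library was therefore the deepest, and 4 distinct barcodes of 7471 kept cells occurred in more than 1 library. Classes were cut from the share of a cell's UMIs in its hormone gene or in a marker list, and named after it with "-like". They held 4892 β-like (insulin), 883 α-like (glucagon), 560 δ-like (somatostatin), 149 PP-like (pancreatic polypeptide), 147 macrophage-like, 124 endothelial-like, 87 mesenchymal-like, 55 ductal-like and 56 acinar-like cells, besides 213 cells with more than 1 hormone. In β-like cells, cut by Ins1 and Ins2 alone, all 9 listed β-cell markers were detected in at least 10 percent of cells. In α-like, δ-like and PP-like cells 6 of 6, 4 of 5 and 3 of 4 of their listed markers were. The macrophage-, endothelial- and mesenchymal-like classes were cut by their own marker lists, so that 12 of 13, 12 of 12 and 10 of 11 of those markers at that share follow from the rule and support nothing. The rare classes were small in each library, with 30 to 45 macrophage-like, 20 to 44 endothelial-like and 15 to 29 mesenchymal-like cells. Levels are given as CPM, the UMIs of a gene per 1e+06 UMIs of the class in that library. Fewer cells that carry a transcript and less of it per carrying cell both lower a CPM and are told apart below by the number of cells with a UMI, which itself depends on depth.

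These factors are messengers between cells. Colony-stimulating factor 1 (Csf1) is the survival factor of macrophages and Csf3 (G-CSF) that of neutrophils. Il1a and Il1b encode the agonists of the IL-1 receptor and Tnf encodes tumor necrosis factor, all products of inflammatory macrophages that act through NF-κB. IL-1β and IL-18 are made as inactive precursors that caspase-1 cuts in inflammasomes. Il6 and Lif encode relatives that signal through the shared receptor subunit gp130, and Il15 encodes a factor that sustains natural killer and memory T cells.

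By the GENCODE M21 annotation of GRCm38 (mm10), each factor is a protein-coding gene: Il6 at chr5:30013114-30019981 on the plus strand, Csf1 at chr3:107741048-107760469 on the minus strand, Csf3 at chr11:98701263-98703629 on the plus strand, Il1a at chr2:129299610-129309972 and Il1b at chr2:129364570-129371139, both on the minus strand, Tnf at chr17:35199381-35202007 on the minus strand, Il15 at chr8:82331632-82403222 on the minus strand, Il18 at chr9:50554827-50581840 on the plus strand and Lif at chr11:4257557-4272514 on the plus strand. Promoters (250 bases before to 50 after the RefSeq start on GRCm38.p6) were at hand for 7 of the 9 genes. They were searched on both strands for the NF-κB consensus, the AP-1 motif TGANTCA, the IFN-γ-activated site (GAS) TTCNNNGAA and the interferon-stimulated response element (ISRE) GAAANNGAAA. The NF-κB consensus lay in 3 of the 7 promoters (Il6, Csf1 and Lif) against 8.46% of 32851 mouse promoters, and the AP-1 motif in 3 (Il1a, Il6 and Lif) against 7.81%. No match to the GAS (8.30% of all promoters) or ISRE letters (3.44%) was found in the 7 windows. The 3 promoters with an NF-κB match are printed 5′ to 3′ over the 250 bases before the start, with capitals for the matches. After IL-1β, Il6 and Lif were at least 2-fold higher in mesenchymal-like cells and Csf1 in β-like, α-like and δ-like cells. The windows of Il1a, Il1b, Tnf and Il18 held no NF-κB match. Of these, Il1a and Il1b were at least 2-fold higher after IL-1β in macrophage-like cells. Tnf was so in β-like but not in macrophage-like cells, and Il18 was at least 2-fold lower in α-like and δ-like cells. In Il6 (chr5:30012864-30013113, plus strand) the NF-κB match spans positions -44 to -35 from the start and the AP-1 match -249 to -243. In Csf1 (chr3:107760470-107760719, minus strand) the NF-κB match spans -154 to -145, and in Lif (chr11:4257318-4257567, plus strand) it spans -178 to -169, with an AP-1 match at -228 to -222. A match is a description of these letters and was not tested as a binding site.
Il6: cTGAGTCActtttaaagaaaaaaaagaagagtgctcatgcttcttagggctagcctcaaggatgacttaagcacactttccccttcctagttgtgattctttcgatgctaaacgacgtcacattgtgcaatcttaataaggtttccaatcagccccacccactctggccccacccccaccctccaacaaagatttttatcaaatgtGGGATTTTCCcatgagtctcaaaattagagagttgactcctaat
Csf1: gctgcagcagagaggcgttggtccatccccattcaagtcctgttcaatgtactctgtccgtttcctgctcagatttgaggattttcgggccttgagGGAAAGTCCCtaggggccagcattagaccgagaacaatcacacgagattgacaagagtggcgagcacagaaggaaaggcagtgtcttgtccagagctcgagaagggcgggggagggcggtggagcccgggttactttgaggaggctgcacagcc
Lif: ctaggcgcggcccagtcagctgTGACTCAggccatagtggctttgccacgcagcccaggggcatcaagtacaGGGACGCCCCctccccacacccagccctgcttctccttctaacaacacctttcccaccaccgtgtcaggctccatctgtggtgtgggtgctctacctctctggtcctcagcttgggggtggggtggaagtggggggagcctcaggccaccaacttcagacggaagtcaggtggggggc

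Summed over the 4 libraries, β-like cells held the largest share of the UMIs of 6 factors, mesenchymal-like cells of 2 and endothelial-like cells of 1. The β-like share was 72.0% for Csf1, 77.4% for Il1b, 59.3% for Il18, 48.4% for Il1a, 45.3% for Csf3 and 36.8% for Tnf. Mesenchymal-like cells held 78.4% of Il6 and 33.4% of Lif, and endothelial-like cells 58.4% of Il15. For Il1a the interval of the β-like share (39.5 to 57.4) overlapped that of the macrophage-like share, 40.6% (32.0 to 49.7), and macrophage-like cells led with cells thinned to 4000 UMIs, when the β-like share was 39.2%. Macrophage-like cells also led for Il1a when endocrine-like cells with 2 or more macrophage markers were left out. A share depends on how many cells of a class were caught, and β-like cells made up most cells of every library. On levels per UMI the order differed: Il1a, Il1b and Tnf stood highest in macrophage-like cells in at least 1 library, and Csf3 higher in δ-like than in β-like or α-like cells. The class with the most UMIs also differed between libraries for Il1a, Il1b, Tnf, Lif, Csf3 and Il15. For Csf3 it was the ductal-like class untreated (2 of 2 UMIs) and the δ-like class after IFN-γ (10 of 17), and for Il15 the macrophage-like and ductal-like classes tied untreated (2 of 6 UMIs each).

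**Figure D1:**
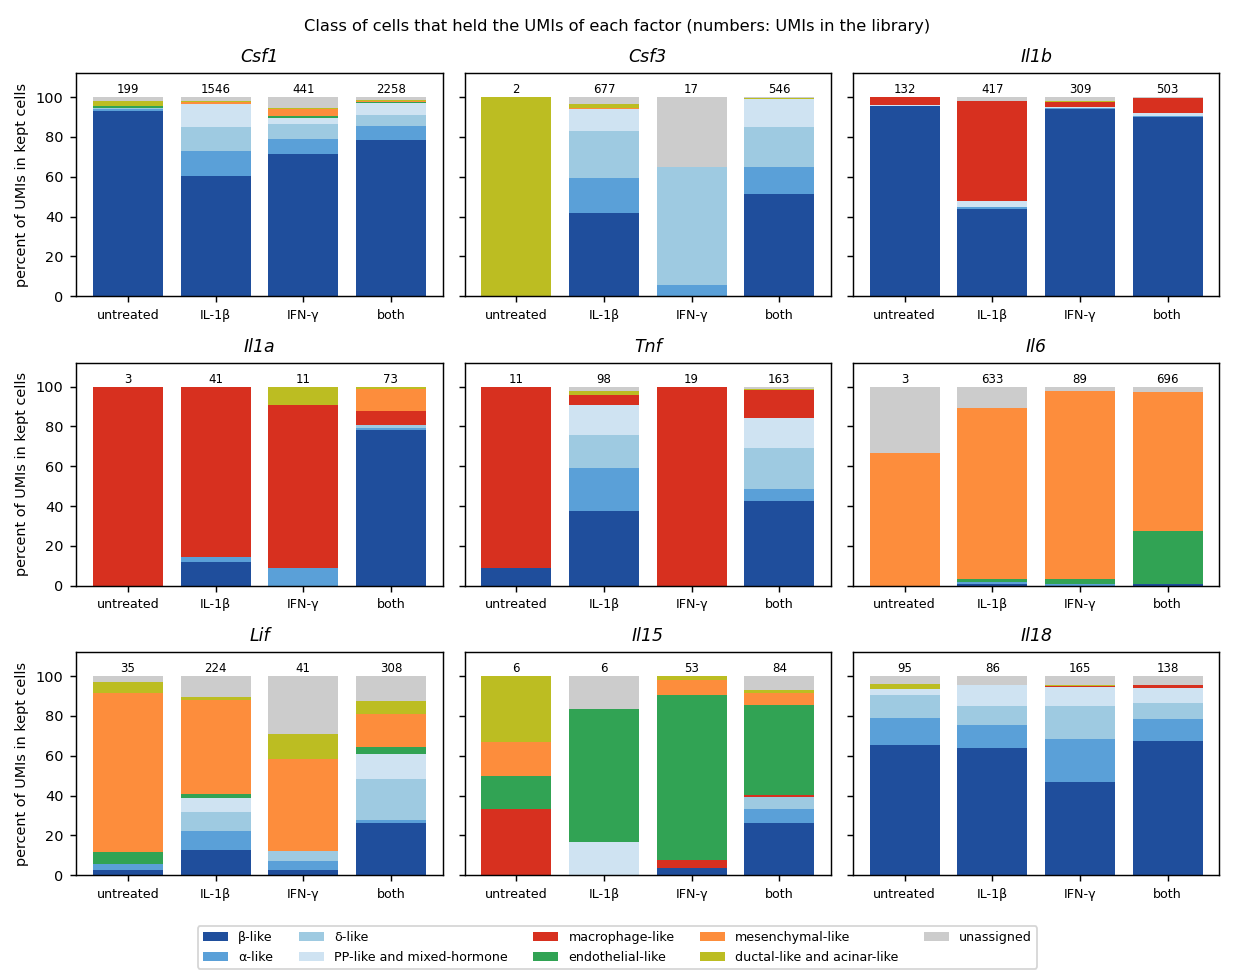
Share of each factor's UMIs in kept cells (percent, vertical axis) that lay in each cell class, 1 stacked bar per library, with the number of UMIs above the bar. Most Il6 lay in mesenchymal-like cells and most Csf1 and Il18 in the endocrine-like classes, while Tnf lay in macrophage-like cells untreated (90.9% of 11 UMIs) and after IFN-γ (100% of 19) and mostly in endocrine-like cells after IL-1β (90.8% of 98).

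Among the colony-stimulating factors, most Csf1 UMIs lay in endocrine-like cells, which were also most of the cells: 94.5% untreated, 96.8% after IL-1β, 89.6% after IFN-γ and 97.0% after both. In β-like cells its level was 9.23 CPM (185 UMIs) untreated, 94.5 CPM (931) after IL-1β, 22.0 CPM (314) after IFN-γ and 113 CPM (1770) after both. Both libraries with IL-1β thus stood well above the other 2, and IFN-γ alone lay between. The ratio to untreated was 10.2 (95% interval 8.73 to 12.1) after IL-1β, 2.38 (1.98 to 2.88) after IFN-γ and 12.3 (10.5 to 14.3) after both. Relative to IL-1β alone, both cytokines gave a ratio of 1.20 (1.11 to 1.30), under the 2-fold rule for a call. A Csf1 UMI was found in 153 of 1181 untreated β-like cells and in 401 of 1151, 258 of 1290 and 651 of 1270 treated ones, at median depths of 17161, 8340, 11036 and 12206 UMIs. When each cell was thinned to 4000 UMIs the shares were 3.92%, 23.5%, 8.71% and 28.8%. Macrophage-like cells, whose own receptor for this factor (Csf1r) stood at 278 to 386 CPM, held no Csf1 UMI in 35, 37, 45 and 30 cells, at median depths of 9746, 5170, 8009 and 9421.5, which allows a share of cells with a UMI (not of cells that express the gene) of up to 8.57%, 8.11%, 6.67% and 10.0%, taken as 3 cells of the total.

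Csf1 was higher in the other endocrine classes of the treated libraries too. In δ-like cells Csf1 was at 1.76 CPM (1 UMI) untreated, 204 CPM after IL-1β, 23.9 CPM after IFN-γ and 153 CPM after both. In α-like cells the levels were 2.18 CPM (2 UMIs), 90.4, 14.7 and 107 CPM. The intervals of δ-like (176 to 236) and β-like cells (88.6 to 101) did not overlap in the IL-1β library, with the δ-like cells higher. The α-like call after IFN-γ was lost with cells thinned to 4000 UMIs (log2 0.72 in place of 2.75). Levels in other classes rested on few UMIs. Mesenchymal-like cells held 0, 15, 14 and 11 Csf1 UMIs (0, 81.2, 62.5 and 80.8 CPM), a direction that turned when the upper limit on detected genes was lifted. Ductal-like cells held 5, 2, 4 and 11 (53.7, 22.03, 19.5 and 218 CPM).

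Csf3 was close to silent without IL-1β. β-like cells held no Csf3 UMI among 1181 untreated and 1290 IFN-γ-treated cells, against 282 UMIs (28.6 CPM) after IL-1β and 281 UMIs (18.0 CPM) after both. This puts Csf3 at least 191-fold higher after IL-1β and at least 120-fold higher after both, with the untreated library set at a floor of 3 UMIs. With cells thinned to 4000 UMIs and the same floor the log2 ratios were 5.54 and 5.003 in place of 7.58 and 6.91. Those UMIs lay in few cells, 107 of 1151 (9.30%) and 98 of 1270 (7.72%), and up to 21 in 1 cell. The level was higher in δ-like cells, at 174 CPM (148 to 203; 35 of 173 cells) after IL-1β and 137 CPM (113 to 165; 17 of 126 cells) after both, than in α-like cells, at 54.9 CPM (45.6 to 65.7) and 48.9 CPM (38.4 to 61.5). The 10 δ-like UMIs of the IFN-γ library came from 1 cell. Ductal-like cells held 2, 13, 0 and 1 Csf3 UMIs, the 13 in 3 of 14 cells (143 CPM, 76.2 to 245), and mesenchymal-like cells held 3, all after IL-1β. Macrophage-like and endothelial-like cells held no Csf3 UMI in any library. The mRNA of its receptor Csf3r was at 9.56 to 37.5 CPM in macrophage-like cells.

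**Figure D2:**
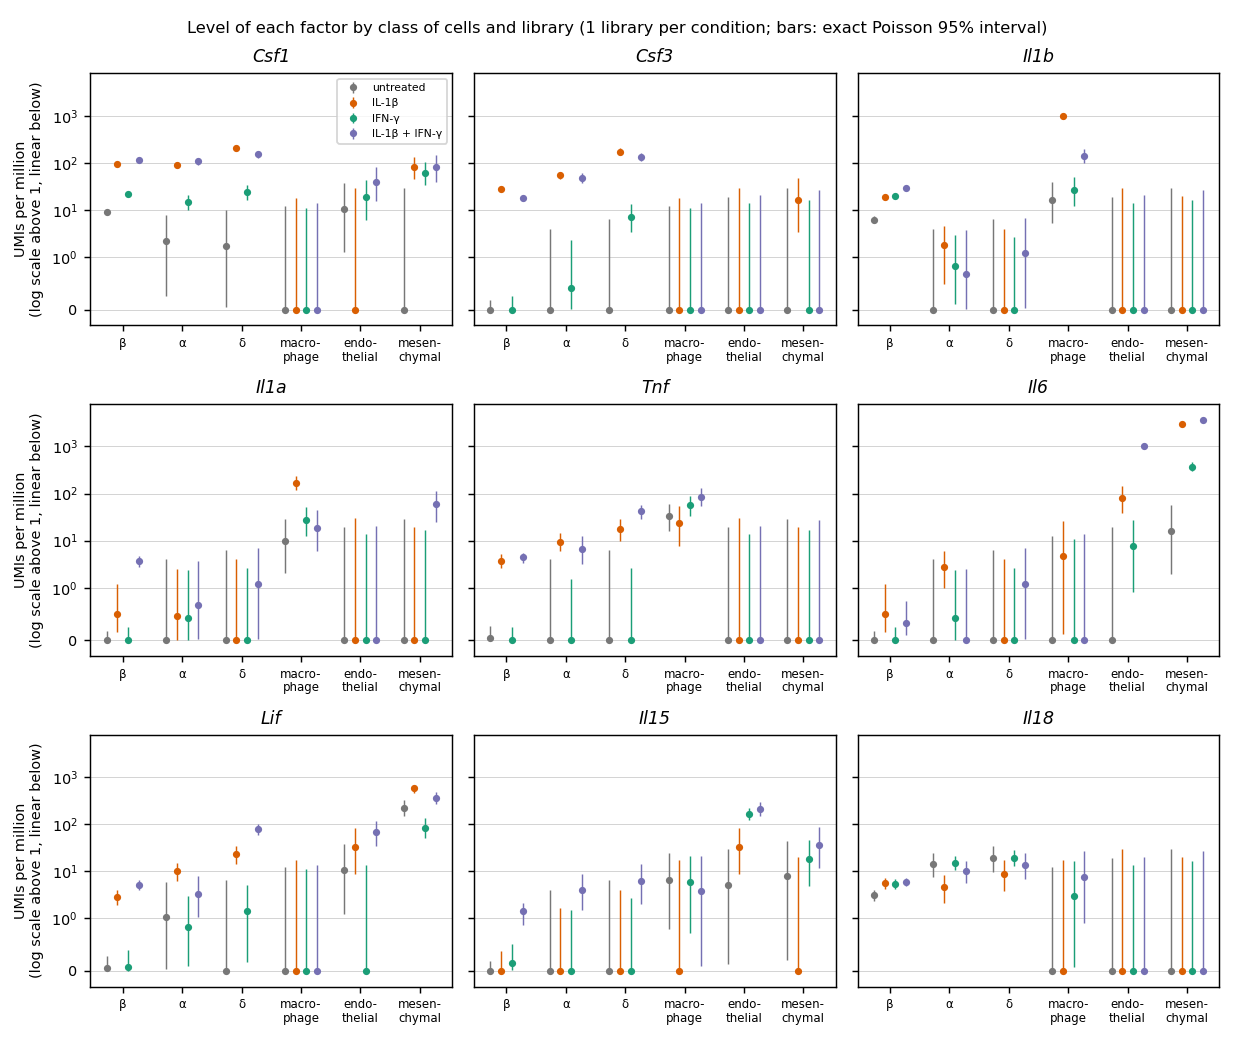
Level of each of the 9 factors (CPM on an axis that is logarithmic above 1 and linear below) in 6 cell classes and 4 libraries; points are summed levels and bars are exact Poisson 95% intervals, which cover counting error only. Il6 in mesenchymal-like cells and Il15 in endothelial-like cells stand above all other classes in the treated libraries where they were found, and Csf1 and Csf3 stand highest in the endocrine classes of both libraries with IL-1β.

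Among the IL-1 family agonists, Il1b was carried by both macrophage-like and β-like cells. Macrophage-like cells held 5 Il1b UMIs (16.6 CPM) untreated, 208 (994 CPM) after IL-1β, 9 (26.9 CPM) after IFN-γ and 38 (142 CPM) after both. IL-1β alone gave the highest level by a wide margin. The ratio to untreated was 59.8 (25.2 to 186) after IL-1β and 8.56 (3.36 to 27.9) after both, and both cytokines against IL-1β alone gave 0.143 (0.0986 to 0.203). The UMIs lay in 17 of 37 macrophage-like cells after IL-1β and in 10 of 30 after both.

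In β-like cells Il1b was at 6.29 CPM (126 UMIs in 110 of 1181 cells) untreated, 18.6 CPM (183 in 151 of 1151) after IL-1β, 20.3 CPM (290 in 210 of 1290) after IFN-γ and 29.0 CPM (454 in 316 of 1270) after both. Each treated level was above the untreated one, and the levels after IL-1β (15.99 to 21.5) and IFN-γ (18.1 to 22.8) overlapped. The ratios to untreated were 2.95 (2.34 to 3.74), 3.23 (2.62 to 4.02) and 4.61 (3.78 to 5.67). α-like cells held 0, 4, 2 and 1 Il1b UMIs and δ-like cells 0, 0, 0 and 1. The β-like share of cells with an Il1b UMI was 9.31%, 13.1%, 16.28% and 24.9%, against 0%, 0.915%, 0.337% and 0.595% of α-like cells, which were shallower (median depths of 10917.5, 6418, 8094 and 8441 UMIs). With every cell thinned to 4000 UMIs the shares were 2.88%, 6.87%, 6.61% and 9.52% in β-like and 0%, 1.02%, 0.353% and 0.613% in α-like cells.

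Markers of macrophages were also found in β-like cells, and their values stand beside this result. The 13 marker genes together were at 74.1, 51.3, 47.8 and 148 CPM in β-like cells of the 4 libraries (here and below in the order untreated, IL-1β, IFN-γ, both), against 24377, 22202, 26255 and 31589 CPM in macrophage-like cells. Their makeup differed. A single marker, the complement gene C1qa, made up 93.4%, 70.1%, 84.0% and 91.97% of the marker UMIs in β-like cells, while in macrophage-like cells all 13 markers were found and the most abundant, Lyz2 or C1qb, took 20.2%, 21.5%, 19.7% and 20.7%. Of the 13 markers, 10, 9, 9 and 10 had a UMI in β-like cells, and Adgre1 and Cx3cr1, which encode the surface proteins F4/80 and the fractalkine receptor, were at 0 in all 4 libraries. The markers other than C1qa, left out after the values were seen, stood at 4.89, 15.3, 7.65 and 11.9 CPM in β-like cells.

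Per 100 UMIs of these 12 markers there were 0.0802, 5.05, 0.121 and 0.550 Il1b UMIs in macrophage-like cells and 129, 121, 266 and 244 in β-like cells. In α-like cells there were 0, 21.1, 14.3 and 3.85, and in δ-like cells 0, 0, 0 and 7.14. Over all 13 markers the values were lower, at 8.48, 36.2, 42.6 and 19.6 in β-like and 0.0683, 4.48, 0.102 and 0.451 in macrophage-like cells. They were then 0, 11.1, 3.33 and 1.41 in α-like and 0, 0, 0 and 1.35 in δ-like cells. β-like cells with none of the 12 markers carried Il1b at 6.47, 19.2, 19.8 and 29.3 CPM (1095, 1022, 1197 and 1112 cells), and those with at least 1 at 4.01, 14.1, 26.8 and 27.2 CPM (86, 129, 93 and 158 cells). The intervals of the levels with and without these 12 markers overlapped in each library. With C1qa counted as well, they did not overlap in the untreated library, at 4.28 CPM (3.19 to 5.63) with a marker and 9.24 CPM (7.27 to 11.6) without, or after IFN-γ, at 15.9 CPM (12.7 to 19.66) and 23.0 CPM (19.98 to 26.4), and the cells without a marker were the higher in both. The antisense gene Il1bos, on the other strand over Il1b, held at most 2 UMIs in β-like cells of any library. No source used here says whether the counting used strand, so the values of Il1a, Il1b and Il18, which overlap genes on the other strand, are uncertain to that extent.

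**Figure D3:**
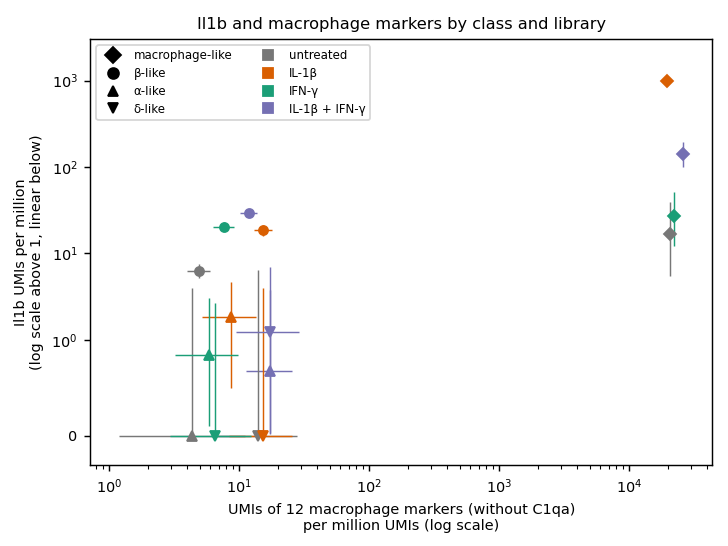
Il1b level (CPM, vertical axis, logarithmic above 1 and linear below) against the summed level of 12 macrophage markers without C1qa (CPM, horizontal log axis), 1 point per class (shape) and library (color), with exact Poisson 95% intervals on both axes. β-like cells, at 6.29 to 29.0 CPM of Il1b, lie above α-like and δ-like cells with marker levels in the same range (4.36 to 17.4 CPM), and macrophage-like cells lie far to the right. C1qa was left out after the values were seen. With it, marker levels were 47.8 to 148 CPM in β-like, 16.3 to 52.3 CPM in α-like and 30.4 to 104 CPM in δ-like cells.

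Most Il1a UMIs lay in macrophage-like cells except after both cytokines. Macrophage-like cells held 3, 35, 9 and 5 Il1a UMIs (9.99, 167, 26.9 and 18.7 CPM), so that IL-1β alone was highest again. The ratio to untreated was 16.8 (5.28 to 85.2) after IL-1β and 2.69 (0.672 to 15.5) after IFN-γ, the last with an interval across 1. β-like cells held 0, 5, 0 and 57 Il1a UMIs, the 57 in 23 of 1270 cells, which is at least 24.3-fold higher after both than untreated and 7.18 times (2.90 to 22.9) the level after IL-1β alone. The log2 ratio to untreated was 2.30 in place of 4.60 with cells thinned to 4000 UMIs, with the untreated 0 set at 3 UMIs in both. Endocrine-like cells with 2 or more macrophage markers numbered 52 of 1380, 31 of 1785, 36 of 1868 and 100 of 1664. Without those cells this log2 ratio was 4.25, and macrophage-like cells held the most Il1a UMIs over the 4 libraries. Whether the β-like Il1a came from such cells was not tested further. Without the 1 cell with most Il1a UMIs in each library, an alternative chosen after seeing the data, the log2 ratio to IL-1β alone was 4.82 in place of 2.84. Macrophage-like cells held 85.4% of the library's Il1a UMIs after IL-1β (35 of 41) and β-like cells 78.1% after both (57 of 73). By level the order differed, since β-like cells were then at 3.64 CPM, under macrophage-like cells (18.7 CPM). Mesenchymal-like cells held 8 Il1a UMIs after both (58.8 CPM), all in 1 cell, and none in the other libraries.

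Most Tnf lay in macrophage-like cells in the 2 libraries without IL-1β and in endocrine-like cells in the 2 with it. Macrophage-like cells held 10, 5, 19 and 23 Tnf UMIs, or 33.3, 23.9, 56.8 and 86.2 CPM. The ratio of both to untreated was 2.59 (1.19 to 6.10), and the single cytokines stayed within 2-fold of untreated. Thinning cells to 4000 UMIs gave a log2 ratio of both to untreated of 3.16 in place of 1.37. β-like cells held 1, 37, 0 and 69 UMIs (0.0499, 3.76, 0 and 4.41 CPM), in 25 of 1151 cells after IL-1β and 45 of 1270 after both. With 1 untreated UMI the ratios, 75.3 (12.7 to 3052) and 88.4 (15.3 to 3540), are loosely bounded. With cells thinned to 4000 UMIs no untreated UMI was left, and with that 0 set at 3 UMIs the log2 ratios were 2.68 and 2.89, in place of 6.23 and 6.47. δ-like cells held 0, 16, 0 and 34 Tnf UMIs (17.4 and 41.9 CPM) and α-like cells 0, 21, 0 and 10 (9.54 and 6.70 CPM), and both classes were empty in the 2 libraries without IL-1β. The endocrine classes together held 1 of 11 Tnf UMIs untreated, 89 of 98 after IL-1β, 0 of 19 after IFN-γ and 137 of 163 after both. With cells thinned to 4000 UMIs and the untreated 0 again set at 3 UMIs, the calls after IL-1β alone were lost in δ-like (log2 -0.65) and α-like cells (log2 0.03).

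Il18 was spread over the endocrine classes at low levels in every library and was not called in β-like cells. β-like cells held 62, 55, 77 and 93 UMIs, or 3.09, 5.59, 5.40 and 5.95 CPM, with ratios to untreated of 1.80 (1.23 to 2.64), 1.75 (1.23 to 2.48) and 1.92 (1.38 to 2.69), none past 2-fold. In α-like cells the per-UMI level was 14.2, 4.54, 15.1 and 10.1 CPM, higher than in β-like cells except after IL-1β. In δ-like cells it was higher than in β-like cells in every library, at 19.4, 8.70, 19.5 and 13.6 CPM. In both of these classes the IL-1β library was the lowest, with ratios to untreated of 0.321 (0.126 to 0.791) and 0.449 (0.157 to 1.22), the latter across 1. Macrophage-like cells held 0, 0, 1 and 2 Il18 UMIs. The genes overlapping Il18 on the other strand, Bco2 and Tex12, held 15, 1, 9 and 3 UMIs and no UMI, respectively, in β-like cells.

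The gp130 cytokine Il6 came from mesenchymal-like cells. They held 2 UMIs (16.03 CPM, 1 of 15 cells) untreated, 543 UMIs (2939 CPM, 24 of 29 cells) after IL-1β, 84 UMIs (375 CPM, 7 of 27 cells) after IFN-γ and 485 UMIs (3562 CPM, 15 of 16 cells) after both. Il6 was thus found in most mesenchymal-like cells of both libraries with IL-1β, with 5 of 29 and 1 of 16 cells without a UMI. The ratio to the 2 untreated UMIs was 183 (50.5 to 1518) after IL-1β and 222 (61.2 to 1840) after both, and both against IL-1β alone gave 1.21 (1.07 to 1.37). Of the 84 UMIs after IFN-γ, 57 came from 1 cell, and the level without that cell was 126 CPM. With no upper limit on detected genes the log2 ratios to untreated were 5.598, 2.31 and 6.00, in place of 7.52, 4.55 and 7.80. For comparison, β-like cells held 0, 5, 0 and 5 Il6 UMIs, in 0.434% and 0.394% of cells after IL-1β and after both, and macrophage-like cells 0, 1, 0 and 0.

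Endothelial-like cells held 0, 10, 2 and 186 Il6 UMIs, the 10 in 1 cell. In the library with both cytokines, 184 of the 186 UMIs lay in the 8 cells that also had 3 or more of the 11 mesenchymal markers (2012 CPM), and 2 in the other 12 cells (22.8 CPM). The 1 cell with Il6 in the IL-1β library had 3 or more as well. Mesenchymal markers stood at 644, 217, 655 and 725 CPM in all endothelial-like cells of the 4 libraries, against 7292, 8494, 8082 and 3782 CPM in mesenchymal-like cells. With both cytokines 8 of the 11 had a UMI, Rgs5, a pericyte gene, was the most abundant, and Col1a1, Lum and Pdgfra were at 0, as they were in the other 3 libraries. The 8 cells were deeper, at a median of 12165 UMIs against 6884.5. Whether they are doublets was not tested. The log2 ratio of both to untreated, 6.05 over all endothelial-like cells, was 2.46 with classes from Louvain clusters, and with no upper limit on detected genes the log2 ratio after IL-1β alone was 6.81 in place of 2.35. Il15 was not confined in this way, at 153 CPM in the 8 cells and 274 CPM in the other 12. Lif was, with 11 UMIs (120 CPM) in the 8 cells and 1 UMI (11.4 CPM) in the other 12. Il6 and Lif are 2 of the 3 factors called higher in endothelial-like cells after both.

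Lif came from several classes. Mesenchymal-like cells held 28 UMIs (224 CPM) untreated, 106 (574 CPM) after IL-1β, 19 (84.8 CPM) after IFN-γ and 50 (367 CPM) after both. Of the 28 untreated UMIs, 18 came from 1 cell, and without it the untreated level was 85.4 CPM, so that the ratio of 0.378 (0.200 to 0.702) after IFN-γ rests on that cell. Lif was found in 24 of 29 mesenchymal-like cells after IL-1β and in 5 of 15 untreated cells. δ-like cells held 0, 21, 2 and 63 Lif UMIs (22.8 CPM after IL-1β and 77.7 CPM after both, in 33 of 126 cells), and the ratio of both to IL-1β alone was 3.403 (2.05 to 5.87). The δ-like call after IL-1β was lost with cells thinned to 4000 UMIs (log2 0.93 in place of 2.11, with the untreated 0 set at 3 UMIs in both). β-like cells held 1, 28, 1 and 81 UMIs (2.84 and 5.18 CPM), where the ratio of both to IL-1β was 1.82 (1.17 to 2.91). Their thinned log2 ratios to untreated were 1.97 and 3.11 in place of 5.83 and 6.70. No untreated UMI was left after thinning, and that 0 was set at 3 UMIs. In ductal-like cells after both cytokines, 21 Lif UMIs lay in 4 of 5 cells, among 50436 UMIs of the class. By level this was above mesenchymal-like cells of that library (50 Lif UMIs among 136162), though it rests on few cells. The mesenchymal-like share of the library's Lif UMIs was 80.0% untreated and 16.2% after both, when the endocrine classes together held 60.7%.

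Most Il15 UMIs of the 4 libraries together lay in endothelial-like cells, where the level stood higher when IFN-γ was present. Endothelial-like cells held 1 Il15 UMI (5.23 CPM) untreated, 4 (32.1 CPM) after IL-1β, 44 (166 CPM, 22 of 44 cells) after IFN-γ and 38 (212 CPM, 14 of 20 cells) after both. The 2 libraries with IFN-γ stood above the other 2. The ratio to the 1 untreated UMI was 31.7 (5.39 to 1279) after IFN-γ and 40.5 (6.84 to 1642) after both. β-like cells held 0, 0, 2 and 22 Il15 UMIs, which puts the combination at least 9.39-fold above untreated and 10.0 times (2.47 to 88.0) the level after IFN-γ alone. α-like cells held 0, 0, 0 and 6 Il15 UMIs and δ-like cells 0, 0, 0 and 5. With cells thinned to 4000 UMIs the β-like call was lost (log2 0.89 in place of 3.23, with the untreated 0 set at 3 UMIs in both). The mRNA of its presenting receptor Il15ra was at 6.14, 13.6, 15.99 and 21.9 CPM in β-like cells.

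Counted by class and treatment, 5 of the 9 factors were at least 2-fold higher in β-like cells after IL-1β (Csf1, Csf3, Il1b, Tnf and Lif), 2 after IFN-γ (Csf1 and Il1b) and 7 after both (the same 5 with Il1a and Il15), and none was lower. A call needed at least 10 UMIs over the pair of libraries, which 6, 3 and 8 factors had. Csf3, Tnf, Lif, Il1a and Il15 had at most 1 untreated β-like UMI. They reached the minimum only through the treated library, so they had to lie high. Several factors in other classes did so too, and these counts are a description from which nothing was read. Of all genes so counted in β-like cells, 18.1% were called higher and 7.53% lower after IL-1β, 7.49% and 1.57% after IFN-γ, and 12.4% and 14.4% after both. In α-like cells 4 factors were higher and Il18 lower after IL-1β (9.76% of all genes higher, 10.7% lower), 1 was higher after IFN-γ (7.85% higher, 3.07% lower) and 3 after both (10.2% and 15.9%). In δ-like cells 4 were higher and Il18 lower after IL-1β (11.3% and 12%), 1 was higher after IFN-γ (6.50% and 5.50%) and 4 after both (12.4% and 19.9%). In macrophage-like cells 2, 1 and 2 factors were higher (9.95%, 12.1% and 11.0% of all genes, with 9.30%, 8.01% and 10.7% lower), and in endothelial-like cells 1, 1 and 3 (9.01%, 10.9% and 10.4% higher, 9.95%, 13.4% and 17.4% lower). In mesenchymal-like cells 3, 2 and 2 were higher (11.7%, 12% and 12.4% of all genes), and Lif was lower after IFN-γ (14.8%, 13.2% and 18.5% lower). Il6 was not called in any endocrine-like class.

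**Figure D4:**
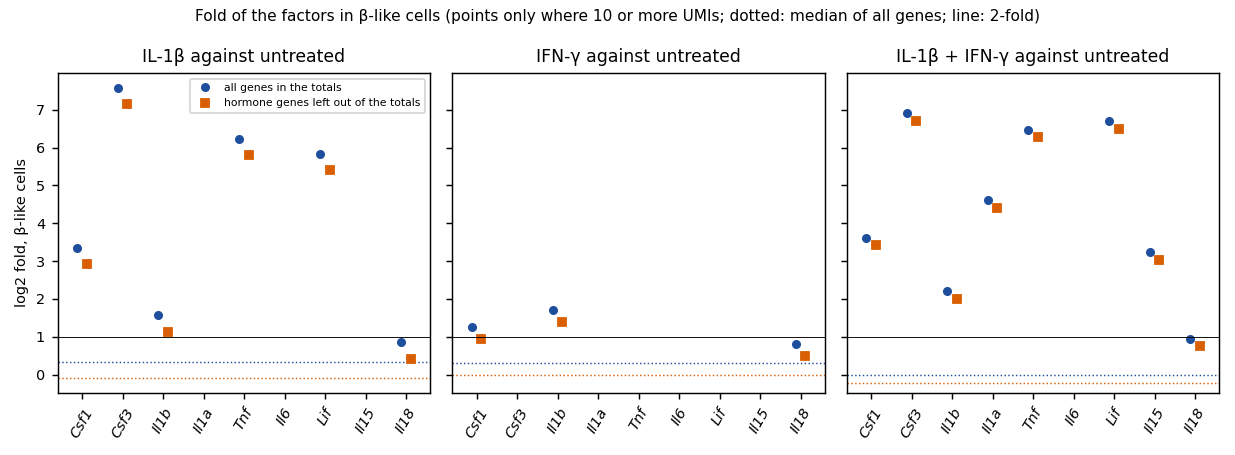
Log2 ratio of each factor's level in β-like cells to the untreated library (vertical axis), 1 panel per treatment, with all genes in the totals (circles) and with the hormone genes left out (squares). Points are drawn where a factor had at least 10 UMIs over the pair, a count of 0 stands at 3 UMIs, the dotted lines are the medians of all genes and the solid line is 2-fold, which Csf1 after IFN-γ passes on the first scale only.

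The hormone genes took 42.2% of all UMIs of untreated β-like cells, 22.3% after IL-1β, 28.7% after IFN-γ and 33.7% after both, which lowers or raises the CPM of every other gene. The median log2 ratio of all genes in β-like cells was 0.33, 0.30 and -0.02. With the hormone genes left out of the totals, the ratio of Csf1 was 7.61, 1.93 and 10.7, that of Il1b 2.20, 2.62 and 4.02, and that of Csf3 at least 142 after IL-1β and at least 105 after both. Csf1 after IFN-γ fell under the 2-fold rule in this way, and the other β-like calls stayed past it. Relative to the median of all genes, the log2 change of Il18 was 0.52, 0.50 and 0.96.

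Several factors were found in the same β-like cells. At least 3 of the 9 factors had a UMI in 1 of 1181 untreated cells, 25 of 1151 after IL-1β, 1 of 1290 after IFN-γ and 76 of 1270 after both, and cells with none of them made up 75.4%, 49.0%, 63.7% and 30.2%. In mesenchymal-like cells 0 of 15, 8 of 29, 3 of 27 and 8 of 16 had at least 3. Nos2, which encodes inducible nitric oxide synthase, was found in β-like cells with more of some factors. In the library with both cytokines Csf1 was at 123 CPM (116 to 129) in the 903 cells with a Nos2 UMI and 84.1 CPM (75.2 to 93.8) in the 367 without, and Csf3 at 21.7 CPM (19.1 to 24.5) and 6.71 CPM (4.38 to 9.83). With IL-1β alone Tnf was at 8.22 CPM (5.37 to 12.05) in the 333 cells with Nos2 and 1.65 CPM (0.821 to 2.94) in the 818 without. In the same library Csf1 was at 133 CPM (121 to 147) and 76.1 CPM (69.7 to 83.1), and Csf3 at 40.8 CPM (34.1 to 48.5) and 22.9 CPM (19.4 to 26.8). The intervals of the levels overlapped for Lif, Il1b and Il18 in both of these libraries and for Tnf after both cytokines. Tnf after both was at 4.93 CPM (3.74 to 6.37) with Nos2 and 2.84 CPM (1.42 to 5.08) without, Lif at 5.69 and 3.61 CPM, Il1b at 30.7 and 24.0 CPM and Il18 at 5.95 and 5.94 CPM. After IL-1β Lif was at 2.21 and 3.14 CPM, Il1b at 19.6 and 18.1 CPM and Il18 at 4.74 and 5.98 CPM. By share of cells, Il1b after both was found in 27.5% (24.6 to 30.5) of the cells with Nos2 and 18.5% (14.7 to 22.9) of those without, where the intervals did not overlap. These pairs of levels were named after their values were seen. Cells with Nos2 were deeper, with medians of 12823 against 10565 UMIs after both and 9184 against 7935 after IL-1β, and the part of depth in these differences was not tested.

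Receptors and binding partners of the factors were called in β-like cells too. Of 19 listed genes, 10 were at least 2-fold higher after IL-1β (14 had enough UMIs; median log2 ratio 1.60), 6 after IFN-γ (12; 0.89) and 10 after both, where 3 were lower (14; 1.88). Over all genes with enough UMIs in β-like cells the shares called higher were 18.1%, 7.49% and 12.4%, those called lower 7.53%, 1.57% and 14.4%, and the median log2 ratios 0.33, 0.30 and -0.02, which also stand beside the 3 lists that follow. Several listed genes had enough UMIs only through the library in which they were high, so these counts and medians are a description and nothing was read from them. Osmr, the receptor subunit for oncostatin M that pairs with gp130, went from 1 UMI to 71 after IL-1β and 63 after both (7.21 and 4.03 CPM). Il18r1, a chain of the IL-18 receptor, was at 0.200, 2.95, 3.09 and 4.60 CPM. The decoy receptor Il1r2, which binds IL-1 without signaling, was at 0.899, 8.23, 1.89 and 5.75 CPM, and the receptor antagonist Il1rn at 0.0998, 1.22, 0.210 and 2.05 CPM. Il18bp, the soluble inhibitor of IL-18, was at 28.7, 65.0, 165 and 126 CPM. Tnfrsf1b, a TNF receptor, had a ratio of 16.97 after both. The 3 lower genes, Il6ra, Il1r1 and Lifr, are receptor chains for IL-6, IL-1 and LIF, and Il1r1 was at 240 CPM untreated and 93.9 CPM after both.

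In macrophage-like cells the antagonist Il1rn rose in each treated library, at 29.96, 143, 161 and 337 CPM, as did Il18bp at 276, 655, 786 and 746 CPM. Of the 19 listed genes, 7, 9 and 8 had enough UMIs, and 2 were higher after IL-1β, 3 after IFN-γ and 4 after both, beside 9.95%, 12.1% and 11.0% of all genes in macrophage-like cells called higher and 9.30%, 8.01% and 10.7% called lower. Il15ra, at 3.33 CPM (1 UMI) untreated and 29.9 CPM (10 UMIs) after IFN-γ, and Il2rg, the common γ chain, at 56.6 and 165 CPM untreated and after both, were among them. Tnfrsf1b was the 1 listed gene that fell, from 153 to 53.8 CPM after IFN-γ.

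Several genes that mature or release IL-1β, IL-18 and TNF were also higher in β-like cells. Of 10 listed genes, 5 were higher after IL-1β, 2 after IFN-γ and 5 after both (6, 5 and 6 had enough UMIs; median log2 ratio 2.51, 0.81 and 3.66). Casp1, the IL-1β-cleaving caspase, was at 0.200, 5.79, 2.53 and 8.76 CPM, and Casp4, the caspase that senses cytosolic lipopolysaccharide, went from 1 UMI to 116 after IL-1β and 319 after both. Gsdmd, the pore-forming gasdermin D, was at 1.497, 8.43, 5.54 and 26.0 CPM. Adam17, the protease that sheds TNF, was at 5.94, 34.0, 10.5 and 32.7 CPM, and its partner Rhbdf2 at 0.948, 5.38, 0.631 and 8.76 CPM. In macrophage-like cells Casp4 was at 16.6, 43.0, 167 and 131 CPM and Casp1 at 66.6, 66.9, 135 and 142 CPM, so that Casp1 there was called after IFN-γ and after both only, as was Gsdmd, at 36.6, 43.03, 83.7 and 86.2 CPM. Rhbdf2 was called lower there after IL-1β and after IFN-γ (9, 3, 4 and 14 UMIs, or 29.96, 14.3, 11.96 and 52.5 CPM), and Aim2, a sensor of cytosolic DNA, after both (10, 6, 12 and 4 UMIs). In all, 8 of the 10 listed genes had enough UMIs in macrophage-like cells, and 1, 3 and 3 were higher and 1, 1 and 1 lower, beside the shares of all genes given for that class.

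**Figure D5:**
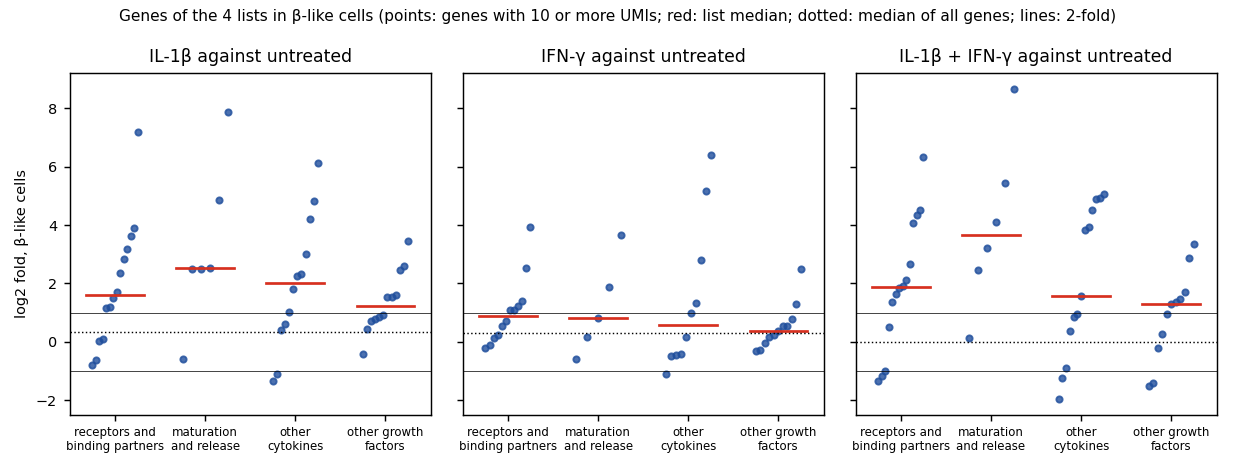
Log2 ratio to the untreated library in β-like cells (vertical axis) of the genes of 4 lists, 1 panel per treatment; each point is a gene with at least 10 UMIs over the pair, red bars are list medians, the dotted line is the median of all genes and the thin lines mark 2-fold. Genes that reached the minimum only through the treated library had to lie high, so the list medians are a description.

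Of 29 other cytokines, 8 were higher and 2 lower in β-like cells after IL-1β (12 had enough UMIs; median log2 ratio 2.02), 4 higher and 1 lower after IFN-γ (10; 0.58) and 7 higher and 2 lower after both (13; 1.58). Il33, an alarmin of the IL-1 family, went from 1 UMI to 34 after IL-1β and 24 after both. Il7, a lymphocyte survival factor, went from 1 UMI to 60 after IFN-γ and 26 after both, against 4 after IL-1β. Tnfsf10, which encodes the death ligand TRAIL, was at 3.44, 17.1, 124 and 78.3 CPM. Il27, a subunit of interleukin-27, was at 0, 12, 0 and 69 UMIs. Its partner subunit Ebi3 fell after IL-1β and after both, with levels of 3.24, 1.52, 2.38 and 0.831 CPM. Il34, the other ligand of the CSF1 receptor, had 1, 14, 6 and 12 UMIs. Ltb, which encodes lymphotoxin β, had 1, 9, 1 and 11 UMIs. In macrophage-like cells Osm, which encodes oncostatin M, was at 1, 27, 13 and 3 UMIs (3.33, 129, 38.9 and 11.2 CPM), highest after IL-1β alone like Il1a and Il1b.

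Of 19 other growth factors, 6 were higher in β-like cells after IL-1β (12 had enough UMIs; median log2 ratio 1.21), 2 after IFN-γ (11; 0.37) and 6 higher and 2 lower after both (11; 1.30). Bdnf, a neurotrophin, was at 1.15, 12.7, 0.912 and 3.71 CPM. Areg, the EGF-receptor ligand amphiregulin, was at 1.25, 6.80, 3.09 and 9.21 CPM, and Inhbb, the activin B subunit, had 3, 9, 12 and 24 UMIs. Tgfb1 had 8, 12, 0 and 16 UMIs and Pdgfb was at 2.396, 7.01, 4.07 and 5.88 CPM, both called after IL-1β and after both. Pdgfa fell after both cytokines, from 29.8 to 10.4 CPM. Of all genes in macrophage-like cells, 9.95%, 12.1% and 11.0% were called higher and 9.30%, 8.01% and 10.7% lower. There 6 listed genes had enough UMIs, and 2, 1 and 2 were higher and 1, 1 and 1 lower. Igf1 was the lower one in all 3 treated libraries, at 203 CPM untreated and 81.3, 56.8 and 82.5 CPM. Vegfa was called higher after IL-1β, at 191 against 93.2 CPM, and Pdgfa at 143 against 69.9 CPM. Pdgfb was called higher after IFN-γ (117 CPM) and after both (97.5 CPM) against 46.6 CPM, and Tgfb1 after both, at 292 against 136 CPM.

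The genes whose levels ran most like each factor were found over 28 class and library profiles of at least 20 cells, which share libraries and classes and are given as a description. Il6 ran most like Tmem45a (Pearson r = 0.92), Csf1 like Steap1 (0.90), Csf3 like Npas2 (0.94) and the chemokine gene Ccl20 (0.90). Il1a was closest to the chemokine gene Ccl9 (0.93) and March1 (0.93), and Il1b to Psd4 (0.83). Tnf was closest to Gas2l3 (0.89), Il15 to Tnfrsf1a (0.87), Il18 to Kdf1 (0.87), and Lif to Pxdn (0.80). The gp130 cytokine gene Il11 (0.79) was among the 3 genes nearest to Lif. Il11 itself was at 537, 5787, 527 and 2923 CPM in mesenchymal-like cells.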

How the data were processed

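Single cells of 4 libraries were analysed, 1 per condition. The values are raw UMI counts per gene and barcode that the authors made with Cell Ranger (software version 3.0.0 per the file headers) on mm10 and deposited without normalization. The annotation behind the counts was not stated. Reagent kit versions differ between the labels (v2) and the study's methods (v3). The libraries held 3486, 2911, 3694 and 2480 barcodes (untreated, IL-1β, IFN-γ, both) and 50731370, 20056630, 31209339 and 25716645 UMIs, of which 7471 of 12571 barcodes were kept.

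Hormone classes needed 500 (insulin, glucagon), 100 (somatostatin) or 1000 (pancreatic polypeptide) hormone UMIs per 10000 UMIs of the cell. Other classes needed no hormone class, 3 detected markers, and 50 (macrophage, ductal), 20 (endothelial), 10 (mesenchymal) or 500 (acinar) marker UMIs per 10000. Cells that passed a hormone gate and the gate of another type were set apart, except where the other type was ductal or neutrophil. This removes the clearest doublets with the remaining types, and Scrublet calls were left out only as an alternative. Ductal markers were also found in hormone classes, at a median of 69.8 UMIs per 10000 in α-like cells after IL-1β, above the ductal gate of 50. The authors' clusters were not used here. No factor served as a marker.

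Counts were summed per class and library and divided by all UMIs of the class. Intervals (95%) were exact Poisson for levels, exact binomial (Clopper-Pearson) for shares and exact conditional binomial for ratios. They cover counting error only. A call was a ratio past 2-fold with at least 10 UMIs over both libraries, and 0 was set at 3 UMIs per class and library. The calling step was tested on simulated data with independent Poisson counts and genes well above the minimum for a call. That setting does not cover calls that rest on the floor of 3 UMIs or on UMIs from few cells. From each list the genes named were those past 2-fold in β-like or macrophage-like cells, at most 6 per list and class by size of change, besides those named for background or after their values were seen (Il1r1, Il6ra, Lifr, Ebi3, Il11, Nos2 and C1qa). The members and lists were chosen with earlier results of these data known. Alternatives covered the filters, depth, class rule, doublets, totals and call thresholds. Software was Python 3.11.15, numpy 2.4.6, scipy 1.17.1, pandas 2.3.3, scanpy 1.11.5, scikit-learn 1.9.0, igraph 0.11.9 and matplotlib 3.10.9.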

Additional observations from a re-analysis of the deposited data

Results flagged for a closer look

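After IL-1β the ratio of Il18 to untreated was above 1 in β-like cells, at 1.80, and below 1 in α-like cells, at 0.321. The β-like ratio was under the 2-fold rule, and was 1.34 with the hormone genes left out of the totals and 1.43 relative to the median gene. With 1 library per condition the difference between the classes was not tested.

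The cell filter removed 1965 barcodes untreated, 893 after IL-1β, 1572 after IFN-γ and 670 after both. The comparisons above use them only where the upper limit on detected genes was lifted. Most of these barcodes were removed for more than 4000 detected genes (843, 146, 345 and 222) or for more than 12% mitochondrial UMIs (1120, 742, 1226 and 447). The treated library named below for each factor is the one where it was highest, so a level above untreated there supports nothing. In libraries not named, Il18 after IL-1β (4.10 against 4.44 CPM) and Il1b after IFN-γ (6.89 against 7.11 CPM) lay under untreated. The removed barcodes were not split into classes. Among the removed barcodes, Il6 was highest after IL-1β, at 92.3 CPM against 0.469 CPM untreated, as were Csf3 at 63.1 against 0.108 CPM and Lif at 45.6 against 1.23 CPM. Both cytokines gave the highest Csf1 (122 against 11.7 CPM), Il1b (15.2 against 7.11 CPM), Tnf (10.4 against 0.181 CPM), Il15 (4.66 against 0.397 CPM) and Il1a (2.69 against 0.108 CPM). Il18 was highest after IFN-γ, at 7.55 against 4.44 CPM.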

How the results depend on the processing

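No paired analysis was possible because each condition has 1 library. Over all alternatives 256 recomputed counts stayed within 1.5 times their first value and 28 did not. Of the single values 624 moved by less than their counting interval, 66 moved further and 7 reversed. Among the counts of factors past 2-fold in β-like cells, the one after IFN-γ was 1 in place of 2 without the hormone genes in the totals and at a 3-fold threshold, and the others stayed within 1.5 times.

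With no upper limit on detected genes the log2 ratios of Csf1 in mesenchymal-like cells turned to -0.16, -0.35 and -0.44 (from 1.76, 1.38 and 1.75), that of Lif in endothelial-like cells for both against IL-1β to -1.10 (from 1.06), and endothelial-like counts became 3 after IL-1β and 2 after IFN-γ (from 1 each). With cells thinned to 4000 UMIs that Lif ratio was -1.28 and Tnf in δ-like cells after IL-1β was -0.65 (from 1.72). Thinned counts were 3 (α-like, IL-1β), 0 (α-like, IFN-γ), 2 (δ-like, IL-1β), 0 (endothelial-like, IL-1β) and 1 (mesenchymal-like, both), in place of 5, 1, 5, 1 and 2. Classes from Louvain clusters turned Lif in α-like cells for both against IL-1β to 0.31 (from -1.58), with counts of 2 (δ-like, IFN-γ) and 0 (endothelial-like, IL-1β) in place of 1 each. Tnf had no untreated UMI in δ-like cells, so its negative ratio is one to the floor of 3 UMIs and not to a measured level. The cause of the other reversals was not tested.

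The number of factors led by macrophage-like cells was 1 (Il1a) in place of 0 when thinned and without endocrine-like cells with 2 or more macrophage markers, and that led by mesenchymal-like cells 1 in place of 2 with gates times 2. At 3 UMIs for a call counts were 3 (endothelial-like, IL-1β) and 4 (mesenchymal-like, both). At 30 UMIs they were 2 (α-like and δ-like, IL-1β), 0 (macrophage-like, IFN-γ, and endothelial-like, IL-1β) and 1 (mesenchymal-like, both). At 3-fold they were 0 and 1 (macrophage-like, IFN-γ and both) and 1 (mesenchymal-like, IFN-γ), and at 1.5-fold 3 (macrophage-like, IFN-γ). Without the 1 cell with most UMIs, an alternative chosen after seeing the data, they were 0 (macrophage-like, IFN-γ, and endothelial-like, IL-1β) and 1 (mesenchymal-like, IFN-γ, in place of 3). The macrophage-like, endothelial-like and mesenchymal-like classes held 15 to 45 cells per library.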
